A study of Mus musculus with 6 samples.

Results

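The genes described here encode the ligand, receptors, SMAD proteins and SKI repressors of transforming growth factor beta (TGF-beta) signalling, with 1 secreted matrix protein named for its induction by the ligand. They were chosen by name, as the rows of the deposited table for Tgfb1, Tgfbi, Tgfbr1, Tgfbr2, Smad2, Smad3, Smad4, Smad7, Ski and Skil, and came to 10 of 54532 genes. Messenger RNA was measured in macrophages that had been grown from marrow cells of C57BL/6J mice, which are inbred. Libraries labelled CCL3 came from cells that received the recombinant chemokine CCL3 for 3 days after 7 days of culture, and libraries labelled CTRL served as controls, with 3 libraries in each group. Another reading of the design text is that CCL3 was in the medium from the start, and how control cells were kept over the last 3 days is not stated. Nothing in the labels ties the libraries to separate animals or cultures, and the p-values therefore reflect only the spread between these samples, which could be technical.

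TGF-beta is secreted in a latent form and is released by integrins, proteases and other activators. The active ligand joins the type II receptor TGFBR2 to the type I receptor TGFBR1, a kinase that phosphorylates SMAD2 and SMAD3, which enter the nucleus with SMAD4. The inhibitory SMAD7 is itself induced by the pathway and acts on the receptors, while SKI and its relative SnoN, the product of Skil, repress SMAD-driven transcription. In macrophages TGF-beta is known for restraining inflammatory responses and for its release after uptake of dying cells.

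Levels are given in FPKM, that is, fragments normalised for the length of the gene and the size of the library. Whole fragments worked out from these values summed to between 17399194 and 18609737 per library. Of the 9218 genes whose mean reached 1 FPKM, 2990 differed between CCL3 and control at an adjusted p under 0.05 (limma), which is 32.4%, with 18.0% higher and 14.5% lower. That count was 1643 without control replicate 1, 1128 without control replicate 2 and 1921 without CCL3 replicate 3. On the first principal component control replicate 3 scored -16.3, away from replicates 1 and 2 at -33.3 and -33.2, and CCL3 replicate 3 scored 40.5, away from CCL3 replicates 1 and 2 at 20.9 and 21.4. Higher genes made up 55.4% of the calls, but 11.3% if values were rescaled to TPM and 20.9% if plain fragment totals were used; the median log2 fold change over all tested genes was then -0.48 and -0.28, against 0.01. All 8 listed macrophage markers were detected in every library, from Mertk at 3.68 to 9.35 FPKM and Itgam at 12.2 to 18.8 up to Csf1r at 559 to 922 and Lyz2 at 8049 to 25897. Of these 8, Cd68 rose (0.54 on the log2 scale), Lyz2 and Cd14 fell (-0.91 and -0.94), and 5 passed in neither direction. The shares to read this count against are the 18.0% higher and 14.5% lower among all tested genes. The summed level was 16815 to 28674 FPKM in control and 10809 to 15285 with CCL3. Lyz2 made up most of that sum in every library, at 14250 to 25897 FPKM in control and 8049 to 12117 with CCL3. The sum therefore says little about the other markers. T cell markers summed to at most 2.85 FPKM in a control library and to 3.07 to 5.73 with CCL3, most of it Cd4 in every library. Cd4, the 1 of 8 that was tested, rose from 2.51, 1.34 and 0.650 FPKM in control to 5.31, 2.97 and 2.80 with CCL3 (adjusted p = 0.0462, limma). Lck had means of 0.297 and 0.298 FPKM in control and CCL3 libraries, and Cd3g and Cd8a were at 0 in every library. The part of these markers in the results that follow was not tested.

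All 10 genes passed the filter, 1 was called higher with CCL3 and 1 lower, and 8 passed in neither direction. The ligand gene Tgfb1 about doubled, from 85.3 to 183 FPKM, and the inhibitory SMAD gene Smad7 fell from 6.63 to 2.77 FPKM. These shares, 1 of 10 in each direction, are no larger than the 18.0% and 14.5% of all tested genes. In 1 gene the CCL3 libraries lay entirely above the control libraries, as they did for 24.6% of all tested genes, and in 2 genes entirely below, as for 24.0%; these 3 of 10 genes without overlap compare with 48.6% of all tested genes. The median log2 fold change of the 10 genes was -0.10, against 0.01 for all tested genes. The count of falls was 2 without control replicate 3, 2 without CCL3 replicate 1, and 0 without both replicates numbered 3. It was 4 with TPM scaling and also 4 with plain totals, Tgfbr2, Smad4 and Ski joining Smad7. Since these are bulk samples, fewer cells of a type and less RNA per cell cannot be told apart.

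**Figure D1:**
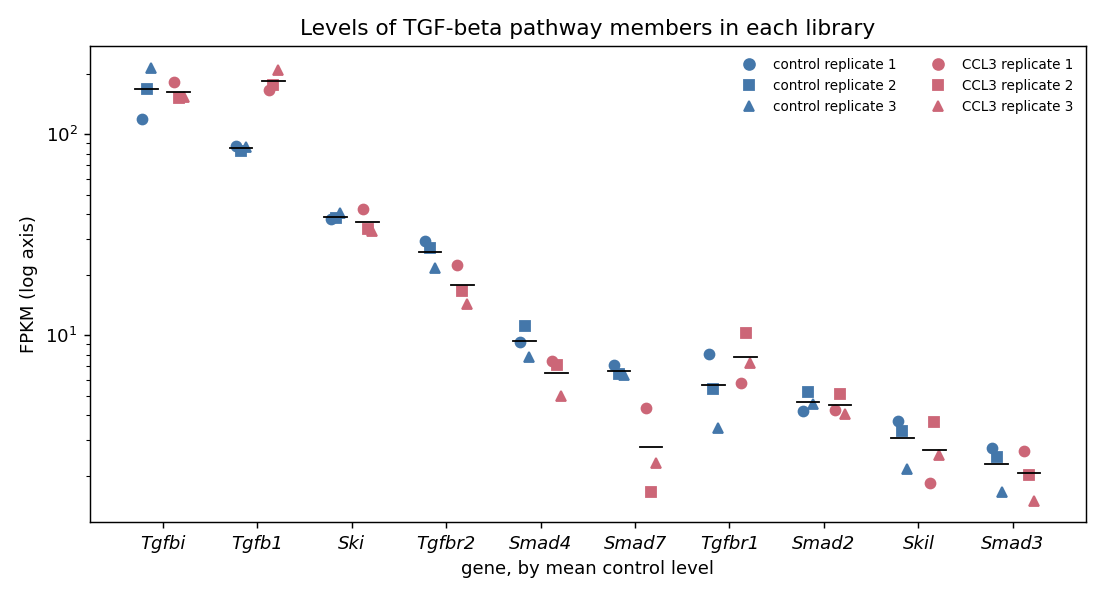
Level of each of the 10 genes in FPKM (log axis) in the 3 control libraries (blue) and the 3 CCL3 libraries (red), with marker shapes for replicates and black lines for group means. Tgfb1 lies higher in every CCL3 library, between 166 and 207 FPKM, and Smad7 lower, between 1.66 and 4.34 FPKM.

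Tgfb1 encodes TGF-beta 1, the main TGF-beta of immune cells, and lies on chromosome 7, 25687002 to 25705077, plus strand (mm10, ENSMUSG00000002603). It stood at 87.1, 82.2 and 86.5 FPKM in control replicates 1 to 3 and at 166, 175 and 207 FPKM in CCL3 replicates 1 to 3. The lowest CCL3 library held almost double the level of the highest control library, and the control libraries lay close together. The group means were 85.3 ± 2.65 and 183 ± 21.6 FPKM (SD, n = 3 per group), a ratio of 2.14. The log2 fold change was 1.09 ± 0.14 SE, with a 95% interval of 0.77 to 1.40 and an adjusted p of 0.00315 (limma). The gene had between 8724 and 15190 fragments per library, so counting error was at most 1.07% and small beside the spread between replicates. The call held under each of the 20 alternatives tried, with adjusted p between 0.00171 and 0.0227 and log2 fold changes between 0.56, with TPM scaling, and 1.15, without CCL3 replicate 1. Relative to the median of all genes the TPM-scaled value was 1.03. Markers of platelets and megakaryocytes, cells that store this protein, rose in part only. Of 8 listed markers 5 were tested and 3 rose, Itga2b (0.643 to 3.32 FPKM), Gp9 (0.288 to 2.73) and Ppbp (0.498 to 4.56). All 3 had control means under 1 FPKM and passed the filter through the CCL3 libraries. These 3 rises and 0 falls compare with 18.0% and 14.5% of all tested genes. Pf4 and Treml1 passed in neither direction (adjusted p = 0.305 and 0.844, limma). The list's summed level was 22.2 to 39.4 FPKM in control and 41.4 to 54.4 with CCL3. Most of it in every library was Pf4, at 18.3 to 36.1 FPKM in control and 25.4 to 38.4 with CCL3. Markers of osteoclasts, which also derive from the macrophage lineage, summed to 18.1 to 27.0 FPKM in control and 62.0 to 81.8 with CCL3. Of 3 tested 2 rose, Acp5 (8.72 to 33.4 FPKM) and Atp6v0d2 (5.57 to 25.4), against 18.0% of all tested genes. Calcr, the calcitonin receptor gene, was at 0 in every library. All 3 tested of 8 dendritic cell markers rose, Ccr7, Batf3 and Fscn1 (0.91, 0.88 and 1.11 on the log2 scale), against 18.0% of all tested genes. Ccr7 had a control mean of 0.402 FPKM and passed the filter through the CCL3 libraries. The 5 markers below the filter each had a lower mean with CCL3. These were Cd209a (0.518 to 0.0252 FPKM), Flt3 (0.215 to 0.124), Zbtb46 (0.0427 to 0.0145), Clec9a (0.0336 to 0.0140) and Xcr1 (0.0141 to 0). The dendritic list summed to 3.30 to 4.62 FPKM in control and 7.92 to 9.74 with CCL3. The part of these 3 lists in the result was not tested.

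The 250 bases upstream of the RefSeq start of Tgfb1 (GRCm38.p6, chr7:25686752-25687001, plus strand) are shown because this is the member that rose, and those of Tgfbr2 (chr9:116175364-116175613, minus strand) because its product binds that ligand first. Both are written 5′ to 3′ on the gene's strand, with capitals for the GC box GGGCGG, a site read by SP1-type factors, and for the SMAD box CAGAC, on either strand.
Tgfb1: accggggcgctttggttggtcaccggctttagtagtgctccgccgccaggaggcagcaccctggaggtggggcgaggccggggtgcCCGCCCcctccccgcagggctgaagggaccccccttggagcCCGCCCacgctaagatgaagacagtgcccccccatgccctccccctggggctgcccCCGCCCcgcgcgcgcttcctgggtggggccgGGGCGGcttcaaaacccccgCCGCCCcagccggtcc
Tgfbr2: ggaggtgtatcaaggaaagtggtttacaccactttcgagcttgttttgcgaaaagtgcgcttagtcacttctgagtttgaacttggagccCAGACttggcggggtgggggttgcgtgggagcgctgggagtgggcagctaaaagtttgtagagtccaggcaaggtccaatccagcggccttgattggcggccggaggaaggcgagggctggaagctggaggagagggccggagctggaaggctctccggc
The Tgfb1 window held 5 GC boxes and 0 SMAD boxes, and the Tgfbr2 window 0 GC boxes and 1 SMAD box. Of 32851 RefSeq windows of the same length 32.7% held a GC box and 42.2% a SMAD box. The 7 windows found for Ski, Smad3, Tgfb1, Tgfbi, Tgfbr1 and Tgfbr2, with Tgfbr1 having 2, held 0 copies of the SMAD palindrome GTCTAGAC, present in 0.167% of all windows, and 0 of the AP-1 site TGANTCA, present in 6.75%. Ski, which did not differ between groups by the test, also had 5 GC boxes. Each printed window held only 1 of the 2 marked motifs, so none overlapped another, and such matches describe letters only.

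Tgfbi encodes a secreted matrix protein that binds collagens and integrins and is named for its induction by TGF-beta. Its levels were 119, 168 and 214 FPKM in control replicates 1 to 3 and 181, 152 and 152 FPKM in CCL3 replicates 1 to 3. All CCL3 libraries lay inside the range of the control libraries, which was the wider. The means were 167 ± 47.4 and 162 ± 16.8 FPKM (SD, n = 3), which is -0.01 ± 0.22 SE on the log2 scale (adjusted p = 0.971, limma). Its 95% interval of -0.51 to 0.48 leaves room for a change of either sign. The direction turned with the libraries used, being 0.19 when control replicate 3 was left out and -0.23 when control replicate 1 was. Within each library Tgfbi was 1.37, 2.04 and 2.47 times the level of Tgfb1 in control and 1.09, 0.864 and 0.736 times in CCL3 replicates 1 to 3. The ratio was thus lower in every CCL3 library than in any control library, with a difference in log2 ratio of -1.11 and an exact permutation p of 0.10 (two-sided, 3 against 3 libraries), the smallest this design allows, or 0.30 adjusted over the 6 ratios examined.

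The receptor genes gave no call in either direction. Tgfbr2, the ligand-binding receptor gene (chromosome 9, 116084293 to 116175360, minus strand), stood at 29.3, 27.1 and 21.5 FPKM in control and at 22.4, 16.6 and 14.3 FPKM in CCL3 replicates 1 to 3. Control replicate 3 lay just below CCL3 replicate 1, and the other libraries were separated by group. The means were 26.0 ± 3.99 and 17.8 ± 4.14 FPKM (SD, n = 3), and the log2 fold change was -0.53 ± 0.19 SE with a 95% interval of -0.98 to -0.09, an unadjusted p of 0.0247 and an adjusted p of 0.0665 (limma). It passed when control replicate 3 or CCL3 replicate 1 was left out (log2 fold changes of -0.66 and -0.70, adjusted p = 0.0382 and 0.0310), as it did with TPM scaling, plain totals and quantile normalization, and adjusted p ranged from 0.00583 to 0.195 over the alternatives. Tgfbr1, the gene of the kinase receptor, had a lower level, at 8.03, 5.40 and 3.45 FPKM in control and 5.79, 10.3 and 7.28 FPKM with CCL3. The libraries overlapped widely, with the highest value in CCL3 replicate 2 and the lowest in control replicate 3. The log2 fold change was 0.43 ± 0.28 SE (95% interval -0.22 to 1.08, adjusted p = 0.262, limma), and it changed sign with TPM scaling, to -0.03. It was 0.69 without control replicate 1, 0.18 without control replicate 3 and 0.24 without CCL3 replicate 2. In each library Tgfbr1 was below Tgfbr2, at 0.274, 0.199 and 0.160 of its level in control and 0.259, 0.617 and 0.508 with CCL3. CCL3 replicates 2 and 3 had the highest ratios and CCL3 replicate 1 fell among the controls. The difference in log2 ratio was 1.07 (exact permutation p = 0.20, two-sided, 0.30 adjusted over the 6 ratios).

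**Figure D2:**
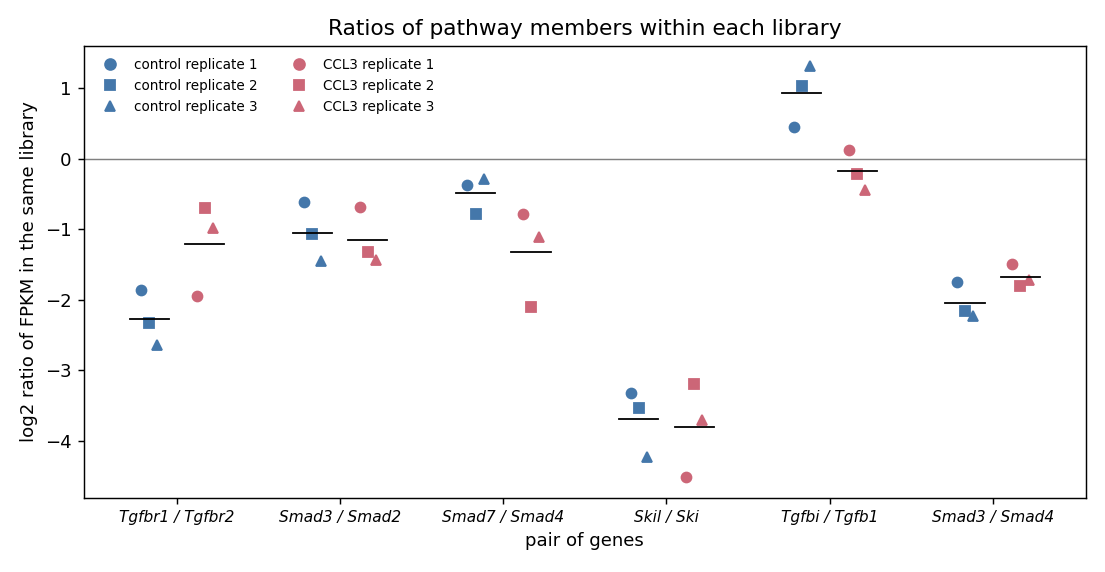
Log2 ratio of the FPKM of pairs of genes in the same library, for the 3 control (blue) and 3 CCL3 (red) libraries, with black lines for group means; such ratios do not depend on how libraries were scaled. Groups are separated only for Tgfbi to Tgfb1, where the difference was -1.11.

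Among the SMAD genes the inhibitory Smad7 fell and the others passed in neither direction. Smad7 (ENSMUSG00000025880, chromosome 18, 75367529 to 75395935, plus strand) stood at 7.11, 6.41 and 6.37 FPKM in control and at 4.34, 1.66 and 2.30 FPKM in CCL3 replicates 1 to 3. Control libraries lay close together, and all 3 CCL3 libraries were below them, CCL3 replicate 1 the least so. The means were 6.63 ± 0.416 and 2.77 ± 1.40 FPKM (SD, n = 3), and the log2 fold change was -1.08 ± 0.24 SE with a 95% interval of -1.64 to -0.52 and an adjusted p of 0.0138 (limma). It rested on 129 to 668 fragments per library, which puts counting error at up to 8.80% in the lowest library, well under the coefficient of variation of 50.5% among CCL3 libraries. Leaving out any 1 library kept the call, with log2 fold changes from -1.36 to -0.86. The call was lost without both replicates numbered 3 (log2 fold change -1.04, adjusted p = 0.0630) and with no filter on low values (adjusted p = 0.0557), against a lowest adjusted p of 0.00236 with TPM scaling.

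Smad4, the partner shared by all receptor-activated SMADs, stood at 9.26, 11.1 and 7.78 FPKM in control and at 7.48, 7.11 and 4.96 FPKM with CCL3. The groups did not overlap, though control replicate 3 and CCL3 replicate 1 were close. The log2 fold change was -0.47 ± 0.19 SE (95% interval -0.90 to -0.04, unadjusted p = 0.0372, adjusted p = 0.0880, limma), short of the threshold, and it passed with TPM scaling and plain totals (adjusted p = 0.00924 and 0.0198; 0.00924 to 0.290 over the alternatives). Smad2 and Smad3 encode the SMADs that the TGF-beta receptor phosphorylates. Smad2 had 4.22, 5.24 and 4.54 FPKM in control and 4.26, 5.09 and 4.08 FPKM with CCL3, so the groups overlapped almost fully (log2 fold change -0.05 ± 0.14 SE, 95% interval -0.38 to 0.28, adjusted p = 0.810, limma). That interval leaves out a change as large as that of Smad7. Smad3, with 121 to 316 fragments per library, had 2.74, 2.49 and 1.66 FPKM in control and 2.66, 2.03 and 1.51 FPKM with CCL3. It too overlapped between groups (log2 fold change -0.11 ± 0.20 SE, 95% interval -0.56 to 0.35, adjusted p = 0.694, limma). The deposited table gives Smad2 a length of 3549 bases, against 8781 exon bases in GENCODE M21, so its level relative to other genes rests on which length is used. The change in its log2 ratio with Smad3 does not, and was -0.10 (exact permutation p = 0.80, two-sided). Relative to Smad4, Smad7 was at 0.768, 0.578 and 0.818 in control and 0.580, 0.234 and 0.464 with CCL3, a difference in log2 ratio of -0.84 (exact permutation p = 0.20, two-sided). Smad3 relative to Smad4 was at 0.214 to 0.296 in control and 0.285 to 0.356 with CCL3 (difference 0.37, exact permutation p = 0.20), so neither ratio separated the groups.

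The genes of the SKI repressors passed in neither direction. Ski was the more abundant in every library, at 37.6, 38.4 and 40.5 FPKM in control and 42.3, 33.9 and 33.1 FPKM with CCL3. CCL3 replicate 1 was above all control libraries and the other CCL3 libraries below them. The log2 fold change was -0.10 ± 0.14 SE (95% interval -0.42 to 0.23, adjusted p = 0.612, limma), although with TPM scaling and plain totals, which lower all genes, it passed as lower (-0.63 and -0.45, adjusted p = 0.0178 and 0.0446; 0.0178 to 0.982 over the alternatives). Skil had 3.75, 3.32 and 2.15 FPKM in control and 1.85, 3.69 and 2.55 FPKM with CCL3. Its lowest values came from control replicate 3 and CCL3 replicate 1, and the groups overlapped (log2 fold change -0.15 ± 0.23 SE, 95% interval -0.68 to 0.38, adjusted p = 0.639, limma). Within libraries Skil was at 0.0531 to 0.0995 of the level of Ski in control and at 0.0438 to 0.109 with CCL3 (difference in log2 ratio -0.11, exact permutation p = 0.80, two-sided).

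**Figure D3:**
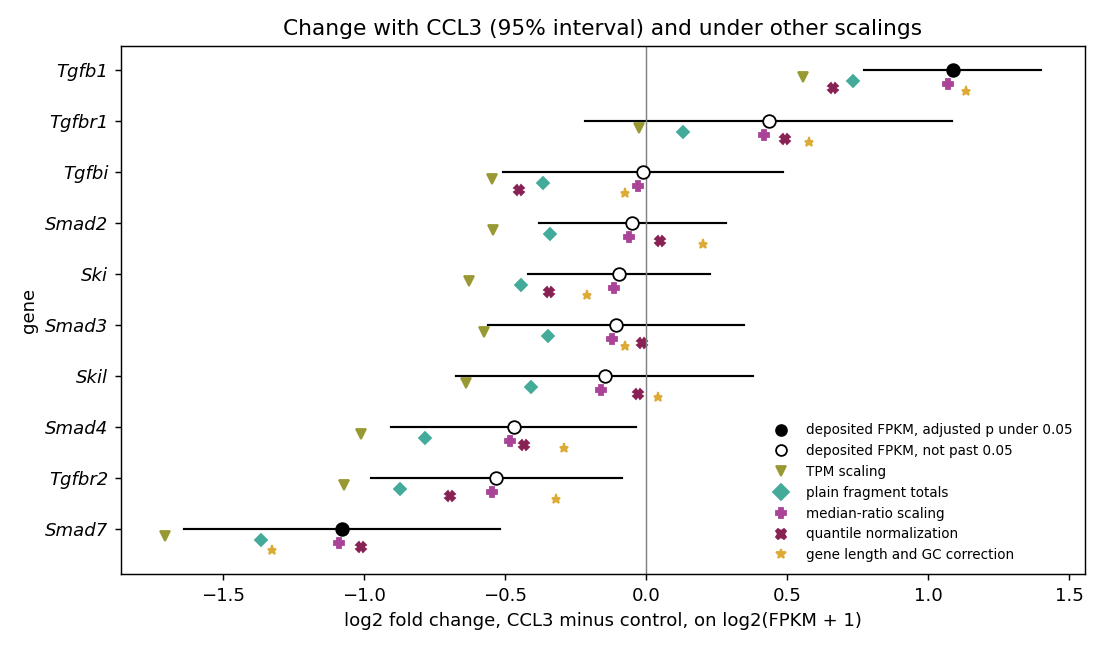
Log2 fold change of each gene, CCL3 minus control, on log2(FPKM + 1), with its 95% interval (black; filled where adjusted p was under 0.05) and the values under 4 other scalings and a length and GC correction (coloured). Tgfb1 stays above 0 and Smad7, Smad4, Tgfbr2 and Ski below 0 under each of these, while Smad2, Tgfbr1 and Skil change sign under at least 1.

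In control macrophages the order of levels per gene length was Tgfbi, Tgfb1, Ski, Tgfbr2, Smad4, Smad7, Tgfbr1, Smad2, Skil and Smad3. Neighbours overlapped in their library values between Smad7 and Tgfbr1, Tgfbr1 and Smad2, and Skil and Smad3, and in no other place of that order. With CCL3 Tgfb1 came first at 183 FPKM, overlapping with Tgfbi at 162, and Smad7 dropped to the eighth place, with each neighbour from Tgfbr1 down to Smad3 overlapping the next. Among all tested genes Tgfbi and Tgfb1 were at the 96.3 and 95.6 percentile of mean level, and Smad3 at the 20.1 percentile. None of the exon bases of the 10 genes is shared with another gene in GENCODE M21, so overlap does not enter these levels. The deposited lengths equal the GENCODE ones for 9 of the 10 genes, the exception being Smad2. Its place in both orders would be lower if the same fragments were divided by the longer GENCODE length. Fragments were not recounted over that length.

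Of 8464 other protein-coding genes, those whose levels followed Tgfb1 most closely over the 6 libraries included Gstm4, Gpsm3, 1110008P14Rik and Khk, with Pearson correlations of at least 0.998 on log2(FPKM + 1). For Smad7 they were Gemin5, Nfkbid, Lmtk2, Bcar3 and Rab22a, with 0.992 to 0.997. Such values are common when groups differ, since 671 genes reached at least 0.95 with Tgfb1 and 193 with Smad7, and all points share the library and its scaling.

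The other genes of the pathway were taken from 9 lists by role. Of 122 genes 76 were tested, and 11 rose and 14 fell, which is 14.5% and 18.4% against 18.0% and 14.5% of all tested genes. Their median log2 fold change was -0.03, against 0.01 for all tested genes. The rises numbered 3, 7 and 6 without control replicate 2, CCL3 replicate 1 and CCL3 replicate 3, and the falls 8 and 4 without control replicates 1 and 2. With TPM scaling 2 rose and 36 fell, and with plain totals 5 and 27.

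**Figure D4:**
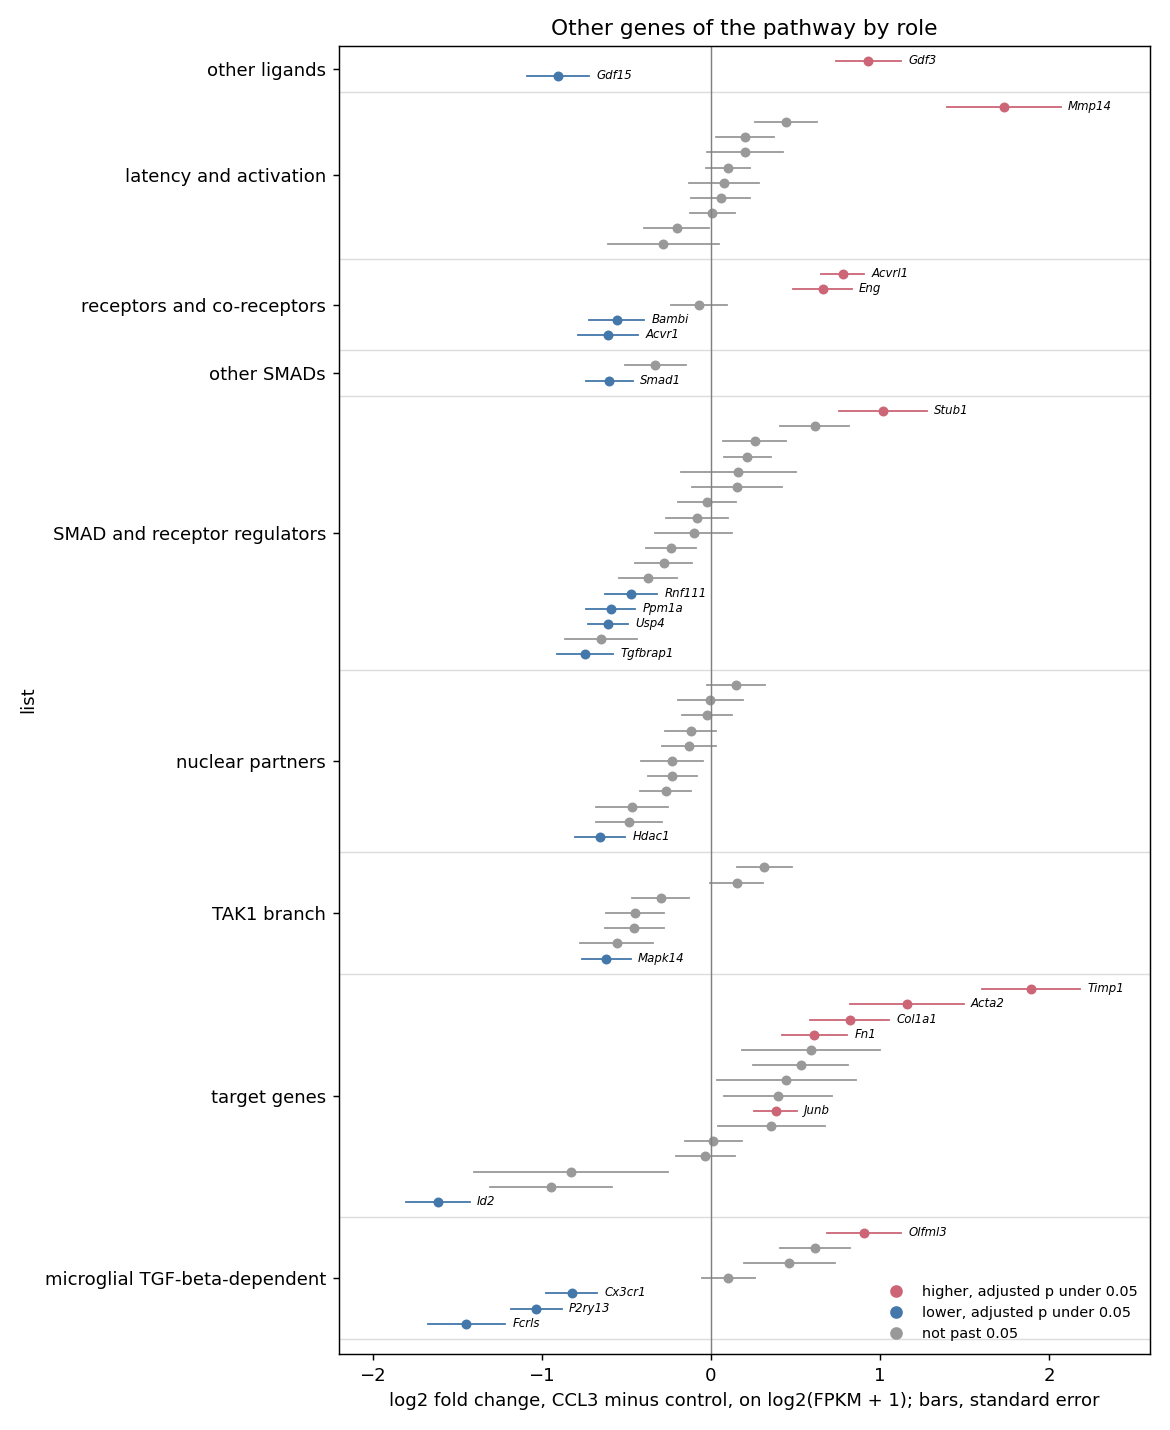
Log2 fold change with standard error, CCL3 minus control, for each tested gene of the 9 lists, grouped by role; red and blue mark genes past an adjusted p of 0.05, which are named, and grey the others. The furthest to the right are Timp1 and Mmp14, at 1.90 and 1.73, and the furthest to the left Id2, at -1.61.

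Tgfb1 was the only TGF-beta isoform gene at an appreciable level, since Tgfb2 had 0.0137 ± 0.00969 and 0.0182 ± 0.0220 FPKM, and Tgfb3 0.370 ± 0.0874 and 0.203 ± 0.143 FPKM, in control and CCL3 libraries (SD, n = 3). Of 13 other ligand genes 2 were tested, and they moved in opposite directions. Gdf3, a member of the superfamily made by macrophages, rose from 7.33 ± 2.07 to 14.7 ± 1.77 FPKM (0.93 ± 0.19 SE on the log2 scale, adjusted p = 0.0104, limma), and the stress-induced Gdf15 fell from 42.6, 28.8 and 45.0 FPKM in control to 21.7, 19.0 and 19.1 FPKM with CCL3 (log2 fold change -0.90 ± 0.19 SE, adjusted p = 0.0102). Gdf3 was lost without control replicate 2 (adjusted p = 0.0511) and when rescaled to TPM (0.47, adjusted p = 0.114). In the list of latency and activation 1 of 10 tested genes rose and 0 fell, against 18.0% and 14.5% of all tested genes, which are the shares to read each list's count against. Mmp14, a membrane-bound metalloproteinase that can release latent TGF-beta, rose from 6.98, 3.68 and 1.78 FPKM in control to 15.1, 16.1 and 12.8 FPKM with CCL3 (log2 fold change 1.73 ± 0.34 SE, adjusted p = 0.00861, limma), with or without each library in turn and under the 4 scalings. Nrros, which holds latent TGF-beta 1 on the surface of macrophages and microglia, had 64.0 ± 5.43 and 68.7 ± 2.99 FPKM (0.10 ± 0.13 SE on the log2 scale, adjusted p = 0.559), and Furin, the convertase that cleaves the precursor, 39.4 ± 1.36 and 39.8 ± 4.36 FPKM. Itgb8, a subunit of an activating integrin, had at most 0.00430 FPKM in a library.

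Acvrl1, a type I receptor gene known from endothelial cells, rose from 9.81 ± 0.762 to 17.6 ± 0.814 FPKM (0.78 ± 0.13 SE on the log2 scale, adjusted p = 0.00506, limma), and its co-receptor gene Eng from 10.1 ± 1.51 to 16.5 ± 2.88 FPKM (0.66 ± 0.17 SE on the log2 scale, adjusted p = 0.0228). The type I receptor gene Acvr1 fell by 0.61 ± 0.18 SE on the log2 scale (adjusted p = 0.0339, limma). Bambi, which encodes a decoy receptor without a kinase, fell by 0.56 ± 0.16 SE (adjusted p = 0.0351, limma). Bambi had a CCL3 mean of 0.906 FPKM and passed the filter through the control libraries. Of 5 tested receptor genes 2 thus rose and 2 fell, against 18.0% and 14.5% of all tested genes. Smad1, which carries signals of the BMP branch, fell from 3.53 ± 0.303 to 1.99 ± 0.241 FPKM (-0.60 ± 0.14 SE on the log2 scale, adjusted p = 0.0147), the 1 call of 2 tested in the list of other SMADs. Smad6, the other inhibitory SMAD, had 20.9 ± 2.52 and 16.6 ± 3.55 FPKM and did not pass (adjusted p = 0.195). With TPM scaling 0 of the receptor genes rose and 3 fell, with quantile normalization 2 and 0, and after the length and GC correction 1 and 0, the calls of Eng (0.35, adjusted p = 0.127), Acvr1 (-0.39, adjusted p = 0.0938) and Bambi (-0.34, adjusted p = 0.186) being lost. Acvrl1 held without each library in turn but not with TPM scaling (0.29, adjusted p = 0.175), while Eng was lost without control replicates 1 and 2 or CCL3 replicate 1 (adjusted p = 0.0542 to 0.0863), Acvr1 without control replicates 1 and 2 or CCL3 replicates 2 and 3 (0.0796 to 0.119), and Smad1 without control replicates 1 and 2 (0.0644 to 0.0786). Bambi held only without CCL3 replicate 1 and otherwise had adjusted p of 0.0699 to 0.110. Endothelial markers, named here since Acvrl1 and Eng are used in that cell type, summed to 17.0 to 19.4 FPKM in control and 7.92 to 10.6 with CCL3. Of 2 tested 0 rose and 1 fell, against 18.0% and 14.5% of all tested genes. Most of the sum was the gene that fell, Vwf (16.1 to 7.30 FPKM, adjusted p = 0.00429, limma). Kdr did not pass (1.92 to 1.35 FPKM, adjusted p = 0.107). Pecam1 (0.135 to 0.160 FPKM) and Cdh5 (0.135 to 0.124) were below the filter, and Tek was at 0 in every library. The part of these markers was not tested.

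Of the regulators of SMADs and receptors, enzymes and binding proteins among them, 1 of 17 tested genes rose and 4 fell, against 18.0% and 14.5% of all tested genes. Stub1, a ubiquitin ligase gene, rose from 33.7 ± 9.25 to 70.0 ± 22.0 FPKM (1.02 ± 0.26 SE on the log2 scale, adjusted p = 0.0210, limma). Those that fell were Tgfbrap1, whose product binds TGF-beta receptors (-0.74 ± 0.17 SE, adjusted p = 0.0138), Usp4, which removes ubiquitin from TGFBR1 (-0.61 ± 0.12 SE, adjusted p = 0.00902), Ppm1a, a phosphatase of SMAD2 and SMAD3 (-0.59 ± 0.15 SE, adjusted p = 0.0189), and Rnf111, a ubiquitin ligase that targets SMAD7 and the SKI repressors (-0.47 ± 0.15 SE, adjusted p = 0.0488). Under TPM scaling 0 rose and 9 fell, under plain totals 1 and 8, and after the length and GC correction 1 and 2. The 1 that then rose was Usp9x (0.77, adjusted p = 0.0128), while Stub1 dropped to 0.36 (adjusted p = 0.174) and Ppm1a and Rnf111 were lost (adjusted p = 0.0885 and 0.268). Usp9x had a control mean of 0.807 FPKM and passed the filter through the CCL3 libraries. Tgfbrap1 and Usp4 were lost without control replicate 2 (adjusted p = 0.0679 and 0.0584), and Ppm1a without control replicates 1 and 2 or CCL3 replicate 3 (0.0567 to 0.0910). Stub1 held only without control replicate 3 and CCL3 replicate 2 (otherwise 0.0522 to 0.0819), and Rnf111 only without control replicate 3 (otherwise 0.0584 to 0.186).

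In the list of nuclear partners 1 of 11 tested genes fell and 0 rose, against 14.5% and 18.0% of all tested genes, the histone deacetylase gene Hdac1 (-0.65 ± 0.15 SE, adjusted p = 0.0140, limma). Of the TAK1 branch, which carries TGF-beta signals through p38 and JNK kinases, 1 of 7 fell and 0 rose, set against the same shares, the p38 gene Mapk14, from 38.4 ± 2.11 to 24.8 ± 3.71 FPKM (-0.62 ± 0.14 SE, adjusted p = 0.0158). Both calls were lost without control replicate 2 (adjusted p = 0.0665 and 0.0830). With TPM scaling 8 and 5 genes of these lists fell and 0 and 0 rose, and with plain totals 4 and 5 fell.

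Genes known as targets of TGF-beta in other cells had 5 of 15 tested risen and 1 fallen, against 18.0% and 14.5% of all tested genes. The metalloproteinase inhibitor gene Timp1 had 3.85, 1.34 and 2.95 FPKM in control and 8.96, 14.6 and 13.8 FPKM with CCL3, all CCL3 libraries lying above the controls (log2 fold change 1.90 ± 0.29 SE, adjusted p = 0.00438, limma). Acta2, the smooth muscle actin gene, rose by 1.16 ± 0.33 SE and the collagen gene Col1a1 by 0.82 ± 0.23 SE (adjusted p = 0.0325 and 0.0316), with Fn1 (0.61) and Junb (0.38) completing the rises. Fn1 had a control mean of 0.969 FPKM and passed the filter through the CCL3 libraries. Id2, a transcriptional inhibitor that TGF-beta represses in epithelial cells, fell from 69.7, 55.0 and 41.4 FPKM in control to 17.2, 17.4 and 16.5 FPKM with CCL3 (log2 fold change -1.61 ± 0.19 SE, adjusted p = 0.00314). Timp1 and Id2 held without each library in turn and under the 4 scalings. Acta2 was lost without control replicate 2 or any 1 CCL3 library (adjusted p = 0.0638 to 0.0865), Col1a1 without control replicates 2 and 3 or CCL3 replicates 1 and 3 (0.0630 to 0.116), Fn1 without the same 4 libraries as Col1a1 (0.0941 to 0.159) and Junb without each library in turn (0.0630 to 0.175). Under TPM scaling 1 rose (Timp1) and 4 fell, under plain totals 1 (Timp1) and 2, and the value of Junb turned to -0.15 in TPM. After the length and GC correction Col1a1 was lost (0.65, adjusted p = 0.0572) and Junb turned to -0.34. Markers of fibroblasts and stromal cells, among them Col1a1 itself, summed to 2.41 to 4.76 FPKM in control and 5.82 to 8.90 with CCL3. Of these 8 markers 2 were tested, Col1a1 and Col1a2, and both rose, against 18.0% of all tested genes. Col1a2 had a control mean of 0.955 FPKM and passed the filter through the CCL3 libraries, and Lum was at 0 in every library. Their part in these rises was not tested.

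Genes that depend on TGF-beta in microglia, the resident macrophages of the brain, had 1 of 7 tested risen and 3 fallen, against 18.0% and 14.5% of all tested genes. The fractalkine receptor gene Cx3cr1 fell from 62.9 ± 3.11 to 35.4 ± 5.79 FPKM (-0.82 ± 0.15 SE on the log2 scale, adjusted p = 0.00691, limma) and the Fc receptor-like gene Fcrls from 128 ± 31.3 to 46.4 ± 10.6 FPKM (-1.44 ± 0.23 SE, adjusted p = 0.00479), both with or without each library in turn. P2ry13, a nucleotide receptor gene, fell by 1.03 ± 0.15 SE on the log2 scale from a low level of 1.77 ± 0.360 FPKM, and was below the filter when any 1 control library was left out. Olfml3, a secreted matrix protein gene, rose from 9.02 ± 3.41 to 17.1 ± 0.296 FPKM (0.91 ± 0.22 SE, adjusted p = 0.0182), lost without control replicate 2 (adjusted p = 0.0755). The falls numbered 3 under each of the 4 scalings, and the rises 0, 0, 1 and 2 with TPM, plain totals, median-ratio and quantile scaling. Sall1, a transcription factor gene of microglia, was at 0 in every library.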

How the data were processed

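The authors deposited 1 table of FPKM values, a column per library, with the length, position and type of each gene. The submitters' processing notes name the build mm10. Aligner, counting tool, strand setting, treatment of multiply matching reads and annotation were not given in the sources used here. Dividing out gene length left whole multiples of a per-library step for 100% of values (tolerance 0.02 fragments), which gave fragments per gene. Their sum was 0.851 to 1.20 times the divisor behind the FPKM, so that divisor was not the plain total. Replicates of a group differed by a chi-square of 19.6 to 89.7 per degree of freedom, so none were merged.

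The groups were compared on log2(FPKM + 1), which understates changes of low genes, with limma 3.58.1 (R 4.3.3, trended variance, two-sided). P-values were adjusted by Benjamini-Hochberg over the 9218 genes whose mean reached 1 FPKM, with a threshold of 0.05, and errors of fold changes are the model's SE. The steps were tested on simulated data. Members, lists and tests were chosen with earlier results of these data known. All 10 members were named; of each pathway list the called genes were named, up to the 4 with the largest changes; the 5 genes most like Tgfb1 and Smad7 were ranked by Pearson correlation, and 1 of those for Tgfb1 is not reported here. Named outside this rule were Rnf111, Usp9x, Fn1, Junb, Nrros, Furin, Itgb8, Smad6, Sall1, Tgfb2 and Tgfb3, and marker genes. Alternatives covered the pseudocount, filter, scaling, test, length and GC correction, replicate block and left-out libraries. GC content came from GENCODE M21 transcripts, and promoter windows from RefSeq. Intervals on fragment counts cover counting error only.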

Additional observations from a re-analysis of the deposited data

How the results depend on the processing

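Tgfb1 was called higher under all 20 alternatives. The number of members called lower, 1 with FPKM as deposited, was 0 with no filter on low values, with a mean of at least 5 FPKM (where Smad7 was not tested) and without both replicates numbered 3, 4 with TPM scaling, 4 with plain fragment totals, 2 with quantile normalization, and 1 to 2 when 1 library was left out. The count of all genes called, 2990, was 4493 with TPM scaling and 1128 to 3142 when 1 library was left out. Pathway genes called higher numbered 5 with no filter, 2 with TPM scaling, 5 with plain totals and 3 to 10 with 1 library left out, and those called lower 7 with a mean of at least 5 FPKM, 36 with TPM scaling, 27 with plain totals and 4 to 14 with 1 library left out. The causes were not tested.

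Signs turned for members near 0. Skil was 0.018 after length correction and 0.043 after length and GC correction, and -0.34 to 0.024 with 1 library left out. Smad2 was 0.048 with quantile normalization, 0.20 after length and GC correction and -0.13 to 0.022 with 1 library left out. Smad3 ranged from -0.25 to 0.028 and Tgfbi from -0.23 to 0.19 in the same way, Tgfbi was 0.23 without both replicates numbered 3, and Tgfbr1 was -0.027 with TPM scaling. With 1 library left out the difference in log2 ratio of Smad3 to Smad2 ranged from -0.34 to 0.11 and that of Skil to Ski from -0.41 to 0.25.

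In the labels same-numbered libraries share only a number, and whether they share a batch is not stated. Deviations from the group means correlated by -0.06, 0.39 and 0.50 for numbers 1 to 3. Not every library correlated best with its own number, but control replicate 3 and CCL3 replicate 3 did. A shared batch was not tested. With the replicate block 3897 genes were called and 3 members were lower, Smad7, Tgfbr2 and Smad4; with the block and the length correction 3 members were lower and Skil was 0.018. The planned edgeR test on recovered fragments was not run, since the deposited unit is FPKM; limma-voom on them called 3095 genes and the same counts of members, 1 higher and 1 lower. Depth limits the low members most, with 121 fragments for Smad3 in its shallowest library.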
